A study of Mus musculus with 15 samples.

Results

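The 51 genes described here encode the machinery of DNA replication and the enzymes that make its deoxynucleotide precursors, and they were chosen by name from the 18804 genes of the count table. They were sorted by role into origin recognition and licensing (9 genes), the replicative helicase and its loading factors (12), primase and the replicative polymerases (9), the sliding clamp, its loader, single-strand binding and Okazaki fragment joining (11), deoxynucleotide synthesis (5), fork protection and checkpoint mediation (3) and histone deposition at the fork (2). All 51 passed the filter on low counts and were tested. RNA was sequenced from white adipocytes that had been differentiated in culture from mesenchymal stem cells (MSCs) of C57BL/6J mice, and there were 5 libraries in each of 3 groups. In the 0-day group, cells stayed at 37°C throughout. In the 1-day group, cells were moved to 31°C on day 15 of differentiation, and in the 12-day group after the first 4 days, so that these cells passed through later adipogenesis at 31°C and the length of exposure cannot be told apart from the stage at which it began. Every culture was harvested on day 16 after the same adipogenic cocktail of methylisobutylxanthine, dexamethasone, insulin and troglitazone. The labels did not say whether replicates were separate cultures or MSC isolations, so p-values measure only the spread between these libraries.

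Replication begins when the origin recognition complex (ORC), with Cdc6 and Cdt1, loads the ring-shaped MCM2-7 helicase onto DNA. Cdc45, GINS and Mcm10 then turn the ring into an active helicase, polymerase alpha-primase starts each strand, polymerases epsilon and delta extend it on the clamp PCNA, and Fen1 and Lig1 join the fragments of the lagging strand. Many of these genes are transcribed in late G1 and S phase under E2F factors, and fully differentiated adipocytes are known as cells that have left the cell cycle, whereas cultures also hold undifferentiated cells that can divide.

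The promoters of these genes are shown first because part of them hold a sequence feature that the choice of genes did not use. Windows from 250 bases before to 50 bases after the start of transcription (RefSeq, GRCm38.p6) were found for 42 of the 51 genes. They were not found for Gins1, Gins2, Gins4, Mcm4, Prim2, Pole, Rfc2, Tipin and Gmnn. Windows were searched on both strands for 4 spellings of the E2F element (TTTCCCGC, TTTGGCGC, TTTCGCGC and TTTGCCGC, which overlap when 2 face each other), for the CCAAT box (CCAAT) and for the CHR element (TTTGAA), the DREAM-bound element of late cell cycle genes. An E2F spelling stood in 16 of 42 (38.1%) members, against 2.6% of 27025 genes with a promoter in the table. CCAAT stood in 25 of 42 (59.5%) against 41.1%, and TTTGAA in 5 of 42 (11.9%) against 20.2%. Within the 42, the share with an E2F spelling was 7 of 21 (33.3%) among members called higher at 12 days and 9 of 21 (42.9%) among the others. The windows of 6 members follow, written 5′ to 3′ on the strand of the gene, with matches to an E2F spelling or its reverse complement in capitals. Orc1, Mcm5 and Clspn hold a match and were among the members with the largest change at 12 days, Pola1 holds a match and fell at 1 day, Orc3 holds a match and was called in no comparison, and Tk1 had the largest change of all members and holds none of these letters. A match is a run of letters and not a measured binding site.
Orc1 (chr4:108579204-108579503, plus strand): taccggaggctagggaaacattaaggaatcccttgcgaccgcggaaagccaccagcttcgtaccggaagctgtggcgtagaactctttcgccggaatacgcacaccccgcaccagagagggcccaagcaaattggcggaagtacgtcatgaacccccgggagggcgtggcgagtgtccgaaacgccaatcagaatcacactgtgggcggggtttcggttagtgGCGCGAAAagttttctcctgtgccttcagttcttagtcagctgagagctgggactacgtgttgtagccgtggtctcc
Mcm5 (chr8:75109259-75109558, plus strand): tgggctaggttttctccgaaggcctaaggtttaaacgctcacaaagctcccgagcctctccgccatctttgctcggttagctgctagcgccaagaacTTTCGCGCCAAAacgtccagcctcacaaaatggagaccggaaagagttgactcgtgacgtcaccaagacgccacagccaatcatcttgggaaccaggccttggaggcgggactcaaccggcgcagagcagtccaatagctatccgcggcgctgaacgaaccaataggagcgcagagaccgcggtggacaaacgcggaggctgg
Clspn (chr4:126556730-126557029, plus strand): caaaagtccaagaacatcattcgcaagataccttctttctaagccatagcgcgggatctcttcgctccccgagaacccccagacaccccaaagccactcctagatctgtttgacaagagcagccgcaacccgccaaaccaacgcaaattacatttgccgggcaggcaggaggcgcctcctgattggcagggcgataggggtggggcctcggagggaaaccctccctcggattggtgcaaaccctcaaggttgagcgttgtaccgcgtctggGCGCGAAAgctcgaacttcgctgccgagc
Pola1 (chrX:93632106-93632405, minus strand): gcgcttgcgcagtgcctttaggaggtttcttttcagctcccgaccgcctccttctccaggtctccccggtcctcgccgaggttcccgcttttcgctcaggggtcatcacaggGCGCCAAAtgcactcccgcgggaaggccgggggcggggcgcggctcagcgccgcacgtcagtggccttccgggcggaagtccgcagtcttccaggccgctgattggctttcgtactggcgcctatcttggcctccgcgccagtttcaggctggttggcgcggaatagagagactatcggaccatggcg
Orc3 (chr4:34614893-34615192, minus strand): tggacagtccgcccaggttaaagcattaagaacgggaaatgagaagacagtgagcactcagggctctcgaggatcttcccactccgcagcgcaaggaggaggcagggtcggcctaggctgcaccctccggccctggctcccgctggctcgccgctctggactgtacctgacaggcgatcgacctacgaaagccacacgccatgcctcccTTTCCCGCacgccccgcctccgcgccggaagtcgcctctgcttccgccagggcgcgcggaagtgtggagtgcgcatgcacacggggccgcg
Tk1 (chr11:117825965-117826264, minus strand): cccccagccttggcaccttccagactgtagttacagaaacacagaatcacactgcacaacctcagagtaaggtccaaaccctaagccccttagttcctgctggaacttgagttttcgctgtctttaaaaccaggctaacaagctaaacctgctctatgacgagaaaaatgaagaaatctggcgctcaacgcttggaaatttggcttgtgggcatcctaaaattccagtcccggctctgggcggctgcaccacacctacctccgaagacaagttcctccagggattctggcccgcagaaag

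Mcm5 carried 2 overlapping matches, at bases 98 to 105 and 102 to 109 of its window, while Orc1, Clspn, Pola1 and Orc3 carried 1 each, and Orc1 (bases 224 to 231) and Orc3 (bases 210 to 217) have theirs just before the start. Orc1 and Orc3, partners in the same 6-subunit complex, thus share the element but not the change in level described further on. No capital letters stand in the window of Tk1, which says only that these spellings are not in these 300 bases.

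Total counts per library ranged from 64648178 to 133270973, and each member had at least 11 counts in each library. Levels are in CPM, a gene's count set against the size of its library after TMM scaling, which assumes that most genes do not differ between libraries. A gene was called higher or lower at a Benjamini-Hochberg adjusted p under 0.05 over all 14293 genes tested with edgeR and a fold change above 1.5 (0.585 on the log2 scale). The cultures were checked against markers of the cell types they could hold. Adipocyte markers summed to 6380 to 7020 CPM in the 0-day, 7570 to 8140 in the 1-day and 6320 to 6980 in the 12-day libraries. All 14 markers were tested. At 12 days 4 of them were called higher and 6 lower, 71.4% beside 29.2% of all genes called in either direction. Stromal and progenitor markers summed to 1690 to 1770, 1770 to 1860 and 1540 to 1570 CPM, and at 12 days 0 of the 8 tested were called higher and 2 lower (Ly6a and Dlk1). The lower sum at 12 days rested on Ly6a, without which the other 9 markers summed to 1117 to 1207, 1253 to 1311 and 1309 to 1354 CPM. Ly6a was left out after its values were seen, and the sum without it was set mostly by Pdgfra. Between 0 and 12 days the mean of Pdgfra went from 562 to 712 CPM and that of Pdgfrb from 131 to 184. Dlk1 went from 38.3 to 20.4 CPM and Fap from 48.1 to 32.3. By the adjusted p alone, 3 of the 8 were higher and 3 lower at 12 days. Macrophage markers summed to 7.79 to 10.5, 10.9 to 14.2 and 7.64 to 8.35 CPM. At 12 days 2 of the 5 tested were called higher (Csf1r and Lyz2) and 0 lower. Endothelial markers were low, at 0.535 to 0.708, 0.294 to 0.917 and 0.921 to 1.53 CPM. At 12 days 2 of the 3 tested were called higher (Pecam1 and Kdr) and 0 lower. Mesothelial and epithelial markers summed to 10.1 to 11.9 CPM at 0 days, 13.1 to 15.5 at 1 day and 30 to 44.3 CPM at 12 days, when Msln alone of the 5 tested was called higher and Wt1, Krt5 and Krt14 were at 0 in all libraries. Without Msln the other 10 markers summed to 9.55 to 11, 12 to 14.7 and 5.99 to 8.01 CPM. Muscle and cartilage markers summed to 268 to 327, 265 to 300 and 234 to 298 CPM. At 12 days 0 of the 5 tested were called higher and 3 lower (Des, Acan and Sox9). Fcgr1 and Pax7 were at 0 in the 12-day libraries, and Krt5 and Myog in the 1-day libraries. The part of each cell type in the results that follow was not tested. In RNA from a whole culture, more cells that replicate and more RNA per such cell cannot be told apart.

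At 12 days, 25 of the 51 members were called higher than at 0 days and 0 lower, beside 13.0% of all genes tested called higher and 16.2% lower. The median log2 fold change of the members was 0.58 and 46 were above 0, while the median of all genes was 0.01. At 1 day, 9 members were called higher and 2 lower, beside 7.71% and 13.4% of all genes, with a median log2 fold change of 0.24 and 31 above 0. Between 12 and 1 days, 20 members were called higher at 12 days and 0 lower, beside 10.6% and 8.53% of all genes, and the median log2 difference was 0.40. Summed over the 51 members, the level was 661 to 701 CPM in the 0-day, 755 to 781 in the 1-day and 893 to 941 in the 12-day libraries, and the groups did not overlap. The comparisons with 0 days share the same 0-day libraries, so their values are given side by side. The call of 1.5-fold lay close to several members: Rrm2 was just inside at 12 days (0.60), and Rpa1 (0.58), Mcm2 (0.57), Tipin (0.56) and Cdt1 (0.54) were just outside. With the adjusted p alone, 41 members were higher and 4 (Orc3, Pold2, Pold3 and Rfc1) lower at 12 days, beside 39.2% and 37.4% of all genes, and 25 were higher and 11 lower at 1 day, beside 35.3% and 36.2%. Between 12 and 1 days, 38 were higher and 5 lower by the adjusted p alone, beside 34.3% and 32.8%.

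**Figure D1:**
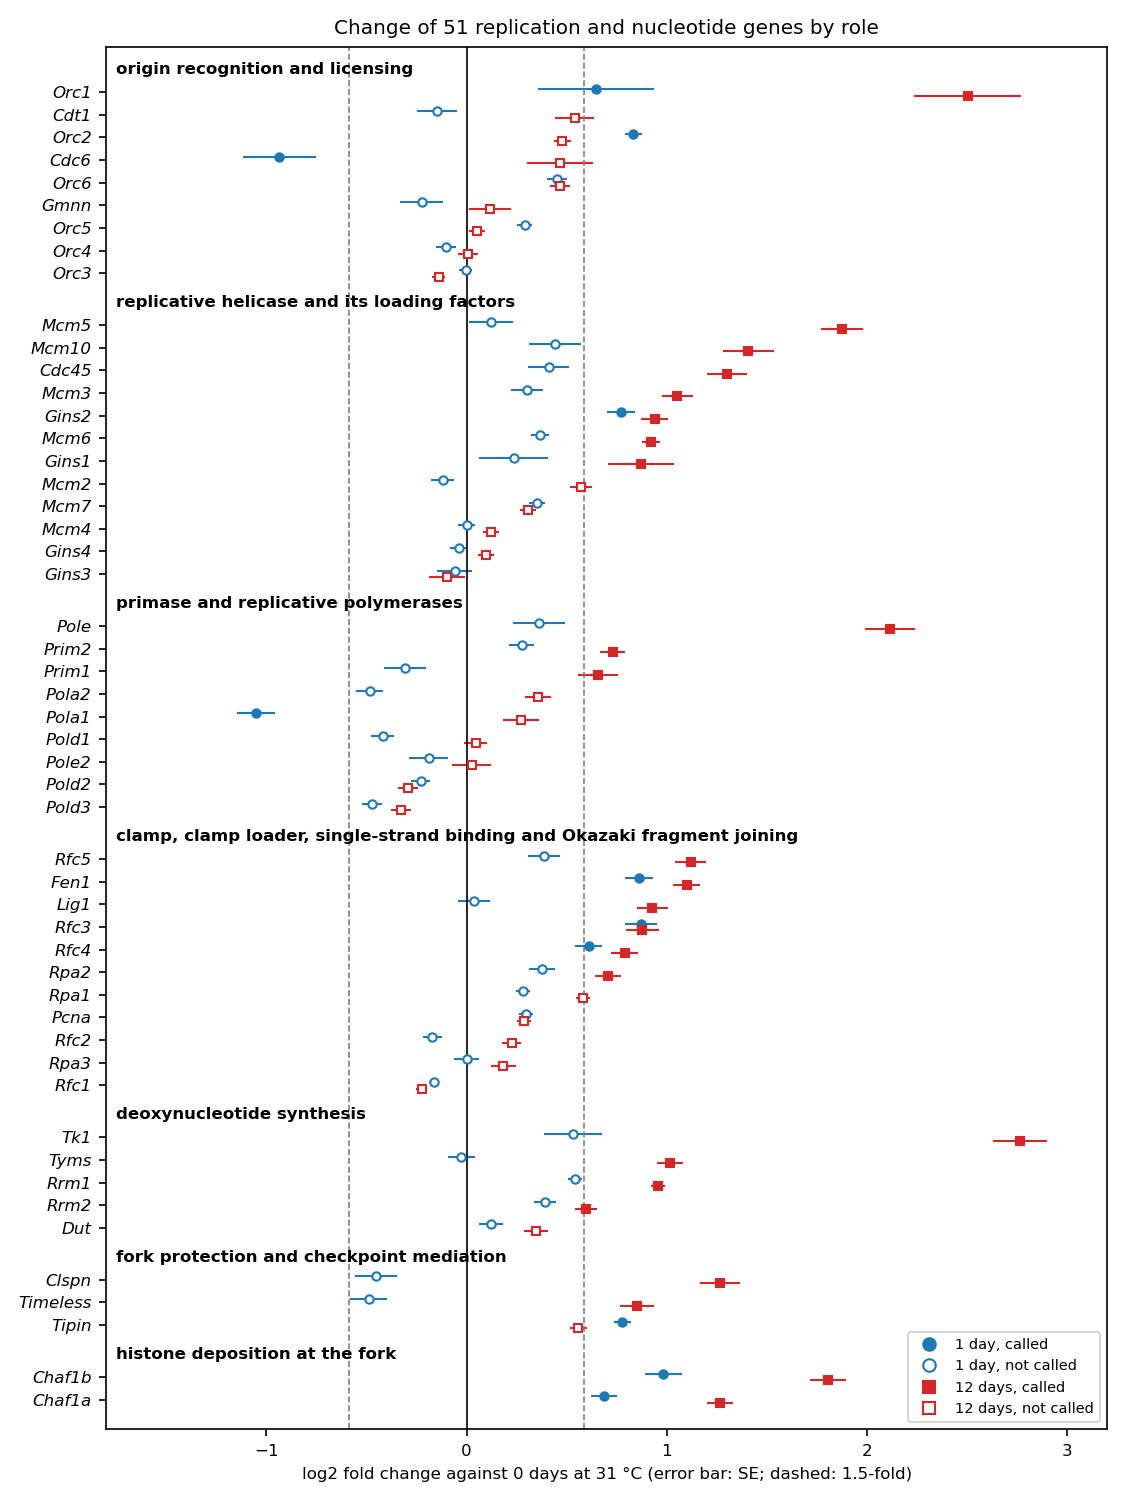
Log2 fold change of each of the 51 members at 1 day (blue circles) and 12 days (red squares) against 0 days at 31°C, ordered by role and within a role by the change at 12 days. Error bars are standard errors from the fit of 15 libraries, filled symbols are called genes and dashed lines mark a 1.5-fold change; 25 red squares are filled, all to the right of 0, and the blue circles of Cdc6 and Pola1 are filled to the left.

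Of the 9 licensing genes, only Orc1 was called higher at 12 days and 0 lower. This share of 11.1% called higher was near the 13.0% of all genes. The median log2 fold change of the group was 0.47. Orc1 (chr4:108579423-108614833, plus strand, GRCm38), the large ATPase subunit of ORC whose level is known to follow the cell cycle, was low in all libraries: 0.246, 0.431, 0.177, 0.353 and 0.12 CPM at 0 days, 0.461, 0.555, 0.413, 0.251 and 0.392 CPM at 1 day and 1.38, 1.78, 1.64, 1.1 and 1.6 CPM at 12 days. Of its exon bases, 10.8% are shared with Gm12743 on the other strand. Each 12-day library was above each other library, while the 0-day and 1-day libraries overlapped. Its log2 fold change was 2.50 ± 0.267 (SE) at 12 days, a 5.67-fold change (adjusted p = 7.4e-09, edgeR). At 1 day the value was 0.65 ± 0.29 (adjusted p = 0.0491, edgeR), a call that was lost in 11 of the 15 fits with 1 library left out and kept without 0-day replicates 2 or 4, 1-day replicate 4 or 12-day replicate 4.

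Orc2, another core subunit, rose at 1 day and was lower again at 12 days. Its levels were 25.2, 26.8, 22.0, 23.8 and 25.7 CPM at 0 days, 44.1, 45.1, 45.6, 42.9 and 42.2 CPM at 1 day and 33.0, 34.4, 34.5, 35.2 and 35.1 CPM at 12 days, and no 2 groups overlapped. The log2 fold change was 0.83 ± 0.0422 at 1 day (adjusted p = 1.3e-14, edgeR) and 0.48 ± 0.0424 at 12 days, under the 1.5-fold limit. Nif3l1 covers 29.8% of the exon bases of Orc2 on the other strand and had log2 fold changes of -0.19 and -0.14.

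Cdc6, the ATPase that brings the helicase to ORC, was the licensing gene that fell at 1 day. It measured 1.4, 1.39, 1.58, 1.58 and 1.24 CPM at 0 days, 0.896, 0.444, 0.772, 1.1 and 0.568 CPM at 1 day and 1.99, 1.87, 1.72, 2.05 and 2.31 CPM at 12 days. The 1-day libraries lay below all the 0-day libraries, and the 12-day libraries above them. The log2 fold change was -0.94 ± 0.181 at 1 day (adjusted p = 6.66e-05, edgeR) and 0.47 ± 0.166 at 12 days, and the difference between 12 and 1 days was 1.40 ± 0.179 (adjusted p = 2.46e-07, edgeR).

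The other licensing genes were not called against 0 days. Orc4 had the smallest change, with 30.5, 30.9, 26.8, 31.1 and 32.7 CPM at 0 days, 26.2, 29.7, 31.1, 27.7 and 26.8 CPM at 1 day and 28.9, 29.9, 33.1, 30.1 and 30.7 CPM at 12 days, all overlapping. Its log2 fold change was 0.01 ± 0.0514 at 12 days. Orc3, Orc5 and Orc6, the remaining ORC subunits, had log2 fold changes of -0.14, 0.05 and 0.47 at 12 days, and the Orc6 libraries at 0 and 12 days did not overlap (adjusted p = 8.39e-09, edgeR). Cdt1, which loads the helicase together with Cdc6, had 0.54, also without overlap (adjusted p = 1.9e-05, edgeR), and Gmnn, its inhibitor geminin, had 0.12. Cdt1 was called higher at 12 days only against 1 day (log2 difference 0.69 ± 0.0976, adjusted p = 1.25e-06, edgeR).

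Of the 12 helicase genes, 7 were called higher at 12 days (Mcm3, Mcm5, Mcm6, Mcm10, Cdc45, Gins1 and Gins2), with a group median of 0.90 on the log2 scale. Mcm5 (chr8:75109569-75128439, plus strand), a subunit of the ring, changed most. Its levels were 3.19, 3.34, 2.78, 2.75 and 2.84 CPM at 0 days, 3.69, 3.28, 3.78, 3.08 and 2.45 CPM at 1 day and 10.6, 8.87, 11.1, 12.1 and 12.1 CPM at 12 days. The 0-day and 1-day libraries overlapped and the 12-day libraries stood far above both. At 12 days its log2 fold change was 1.88 ± 0.103, or 3.67-fold (adjusted p = 3.49e-14, edgeR), and at 1 day 0.12 ± 0.11.

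Within the ring the subunits moved unequally. At 12 days the log2 fold change was 1.05 ± 0.0774 for Mcm3 and 0.92 ± 0.0448 for Mcm6, both called, and 0.57 ± 0.056 for Mcm2, 0.31 ± 0.0386 for Mcm7 and 0.12 ± 0.0411 for Mcm4, not called. Of the exon bases of Mcm7, 3.89% are shared on the same strand with other annotated genes, among them Mir25 and Mir93, and 8.7% on the other strand. Of the initiators outside the ring, Mcm10, which helps to activate it, rose from 1.14 ± 0.15 to 3.05 ± 0.247 CPM (mean ± SD, n = 5 libraries) and Cdc45, its partner in the active helicase, from 2.75 ± 0.34 to 6.77 ± 0.796 CPM. Their log2 fold changes at 12 days were 1.41 ± 0.127 and 1.30 ± 0.0996.

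Of the GINS subunits, which hold Cdc45 on the ring, Gins1 and Gins2 were called higher at 12 days and Gins3 and Gins4 were not. Gins2 was also called at 1 day. It measured 4.97, 4.7, 5.08, 4.21 and 4.39 CPM at 0 days, 8.09, 7.57, 7.34, 7.69 and 9.17 CPM at 1 day and 9.16, 9.12, 8.93, 9.01 and 8.69 CPM at 12 days. The libraries at 31°C lay above all libraries at 37°C, and 1 and 12 days overlapped. Its log2 fold changes were 0.77 ± 0.0694 (adjusted p = 5.25e-10, edgeR) and 0.94 ± 0.0689 (adjusted p = 8.25e-12, edgeR). Gse1 covers 67.3% of the exon bases of Gins2 on the other strand and moved the opposite way, with log2 fold changes of -0.37 and -0.50, from 44.5 ± 2.5 CPM at 0 days. The strand setting of the counts is not known, so the count of Gins2 is uncertain.

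Gins3 and Gins4 had the smallest changes of the group at 12 days, both of 0.10 in size, with opposite signs. Gins3 measured 4.2, 3.43, 3.73, 4.39 and 4.03 CPM at 0 days, 3.76, 3.62, 3.69, 3.68 and 4.19 CPM at 1 day and 4.21, 3.82, 3.45, 3.26 and 3.71 CPM at 12 days. Gins4 measured 21.6, 21.7, 20.6, 21.0 and 21.7 CPM at 0 days, 21.5, 20.7, 20.2, 20.2 and 21.0 CPM at 1 day and 23.0, 24.4, 21.2, 21.6 and 23.6 CPM at 12 days. For both genes the groups overlapped.

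**Figure D2:**
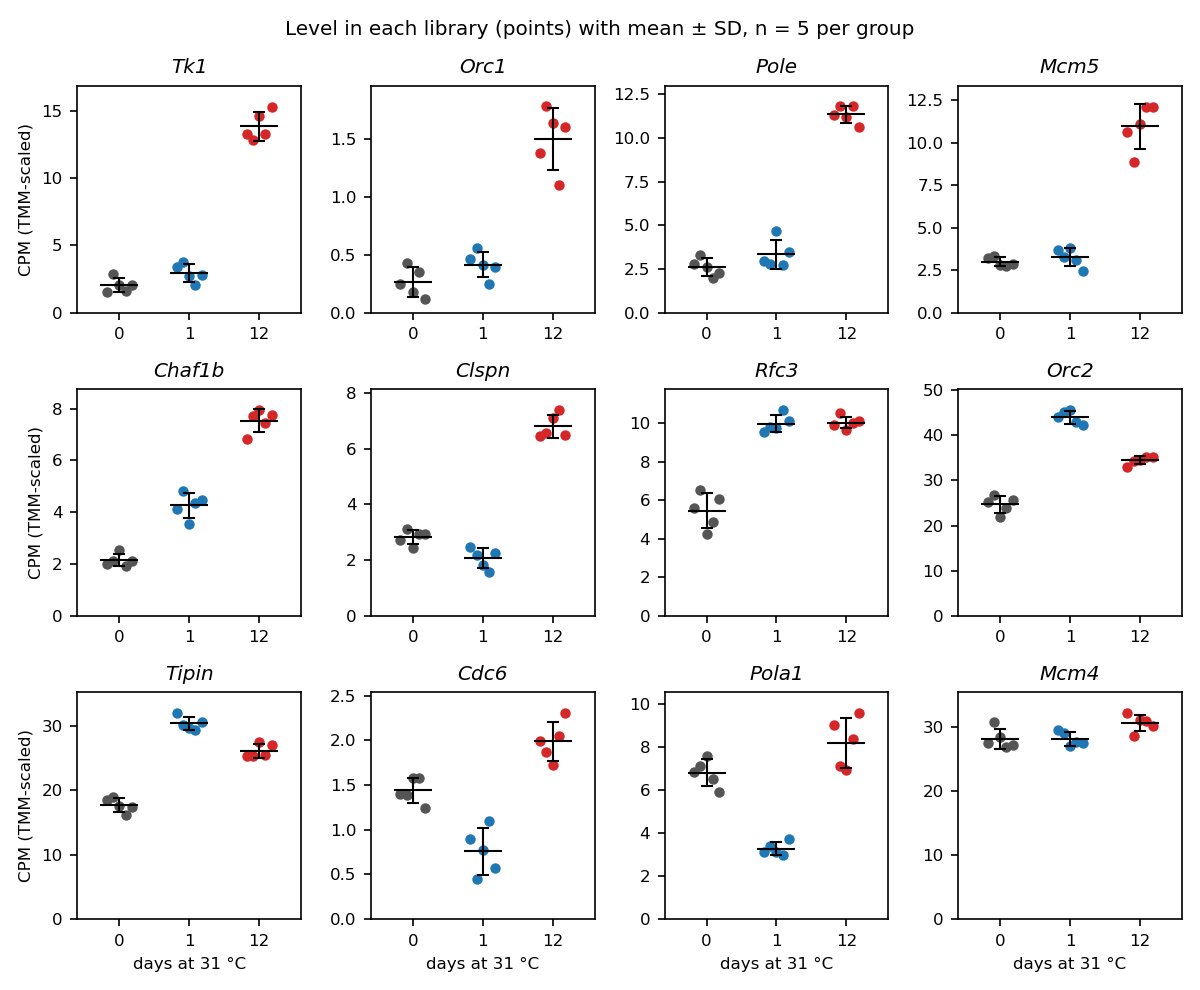
Level in CPM (vertical axis, from 0, TMM-scaled) of 12 members in each of 15 libraries, by days at 31°C; points are libraries, and bars are the mean ± SD of 5. For Tk1, Orc1, Pole and Mcm5 the 12-day points stand far above the rest, for Rfc3 the points at 1 and 12 days are alike, Orc2 and Tipin peak at 1 day, Cdc6 and Pola1 dip there, and the Mcm4 groups overlap.

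Of the 9 primase and polymerase genes, 0 were called higher and 1 lower at 1 day, a share near that of all genes called lower (13.4%). By the adjusted p alone 2 were higher and 6 lower, and the median log2 fold change was -0.31. Pola1 (chrX:93304767-93632155, minus strand), the catalytic subunit of polymerase alpha, fell at 1 day. It measured 6.85, 7.12, 7.58, 6.51 and 5.91 CPM at 0 days, 3.11, 3.4, 3.12, 3.0 and 3.74 CPM at 1 day and 9.01, 7.11, 6.91, 8.38 and 9.57 CPM at 12 days. The 1-day libraries were the lowest without overlap, and the 0-day and 12-day libraries overlapped. The log2 fold change was -1.05 ± 0.0954 at 1 day (adjusted p = 6.15e-10, edgeR), a 0.483-fold level, and 0.27 ± 0.0891 at 12 days. Between 12 and 1 days the log2 difference was 1.32 ± 0.0954 (adjusted p = 1.19e-11, edgeR).

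The subunits that work with Pola1 did not all follow it. At 1 day the log2 fold change was -0.48 ± 0.0669 for Pola2, the regulatory subunit, -0.31 ± 0.105 for Prim1, the catalytic primase, and 0.28 ± 0.0626 for Prim2, its large subunit, none past 1.5-fold. At 12 days Prim1 (0.66 ± 0.1) and Prim2 (0.73 ± 0.0616) were called higher and Pola2 (0.36 ± 0.0645) was not. Against 1 day, Pola2 (0.84 ± 0.0667) and Prim1 (0.97 ± 0.103) were called higher at 12 days.

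The leading-strand polymerase changed most in this role. Pole (chr5:110286306-110337474, plus strand), its catalytic subunit, measured 2.8, 3.31, 2.62, 2.01 and 2.29 CPM at 0 days, 2.97, 2.76, 4.7, 2.75 and 3.47 CPM at 1 day and 11.3, 11.8, 11.2, 11.8 and 10.6 CPM at 12 days. The 12-day libraries stood above all others and agreed closely among themselves, while the 0-day and 1-day libraries overlapped. The log2 fold change was 2.12 ± 0.123 at 12 days, or 4.33-fold (adjusted p = 9.61e-14, edgeR), and 0.36 ± 0.13 at 1 day. Pole2, the accessory subunit of the same enzyme, had the smallest change of the role: 3.32, 3.97, 3.37, 3.12 and 3.98 CPM at 0 days, 3.12, 3.12, 3.49, 3.25 and 2.62 CPM at 1 day and 3.61, 3.25, 3.51, 4.16 and 3.57 CPM at 12 days, all overlapping, for a log2 fold change of 0.03 ± 0.0974.

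Of the lagging-strand polymerase delta, the 3 subunits among the members were not called in any comparison. The catalytic subunit Pold1 had log2 fold changes of -0.42 ± 0.0581 at 1 day and 0.05 ± 0.0569 at 12 days, Pold2 had -0.23 and -0.29, and Pold3 had -0.47 and -0.33. All 3 genes were lower at 1 day without overlap between the groups, by less than 1.5-fold.

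Of the 11 clamp, loader, binding and joining genes, 6 were called higher at 12 days (Rfc3, Rfc4, Rfc5, Rpa2, Fen1 and Lig1) and 3 at 1 day (Rfc3, Rfc4 and Fen1), and the median log2 fold change at 12 days was 0.71. Rfc5, a small subunit of the clamp loader, changed most. It measured 4.81, 5.32, 5.1, 4.42 and 4.18 CPM at 0 days, 7.05, 6.12, 6.48, 5.45 and 6.08 CPM at 1 day and 10.9, 9.12, 10.3, 10.7 and 10.9 CPM at 12 days. The 3 groups did not overlap, and the log2 fold change was 0.39 ± 0.0789 at 1 day and 1.12 ± 0.077 at 12 days (adjusted p = 2.38e-12, edgeR). Wsb2 shares 10.7% of its exon bases and had a log2 fold change of 0.01 at 12 days.

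Rfc3 had reached its 12-day level by 1 day. It measured 5.59, 6.51, 4.27, 4.85 and 6.05 CPM at 0 days, 9.55, 9.8, 9.76, 10.7 and 10.1 CPM at 1 day and 9.92, 10.5, 9.63, 10.0 and 10.1 CPM at 12 days, and the 1-day and 12-day libraries overlapped. On the log2 scale it changed by 0.87 ± 0.0809 and 0.88 ± 0.0807, and the difference between 12 and 1 days was 0.01 ± 0.0785 (adjusted p = 0.947, edgeR). Rfc4, a further small subunit, measured 4.51, 4.96, 4.31, 5.32 and 4.79 CPM at 0 days, 7.44, 7.44, 7.32, 7.6 and 6.68 CPM at 1 day and 8.43, 7.66, 7.81, 8.7 and 8.66 CPM at 12 days. Its log2 fold changes were 0.61 ± 0.0683 (adjusted p = 2.18e-08, edgeR) and 0.79 ± 0.0678, and with 0-day replicate 3 left out the 1-day value (0.58) was no longer called. Eif4a2 overlaps 12.7% of its exon bases on the other strand and fell from 424.6 ± 6.28 CPM to 92.9 CPM at 12 days, opposite in direction.

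Rfc1, the large subunit, went the other way by a small amount, with log2 fold changes of -0.16 ± 0.0268 at 1 day and -0.23 ± 0.0268 at 12 days, and Rfc2, which shares 15.1% of its exon bases with Lat2, had -0.17 and 0.23. Pcna, the clamp itself, had 0.30 ± 0.0345 and 0.29 ± 0.0345, neither called.

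Fen1, the flap nuclease that trims Okazaki fragments, rose at both times. Its levels were 4.82, 5.12, 5.27, 4.99 and 5.87 CPM at 0 days, 9.09, 9.46, 8.64, 10.8 and 9.34 CPM at 1 day and 11.7, 11.9, 10.2, 10.8 and 11.2 CPM at 12 days, all above the 0-day libraries. Fold changes on the log2 scale were 0.86 ± 0.0689 (adjusted p = 6.27e-11, edgeR) and 1.10 ± 0.0684 (adjusted p = 3.5e-13, edgeR). Tmem258 and Gm10143 cover 84.2% of Fen1 exon bases on the other strand, so the count of Fen1 is uncertain. Lig1, the ligase that seals the fragments, was called at 12 days (0.93 ± 0.0767) and had 0.04 ± 0.0789 at 1 day.

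In the single-strand binding complex RPA, Rpa2 was called higher at 12 days (0.71 ± 0.0636), the large subunit Rpa1 was just under the limit (0.58 ± 0.0352) and Rpa3 had the smallest change of the role. Rpa3 measured 8.24, 9.07, 7.66, 7.63 and 8.9 CPM at 0 days, 7.95, 8.17, 8.01, 8.51 and 8.86 CPM at 1 day and 9.42, 8.72, 9.53, 9.19 and 10.2 CPM at 12 days, with overlap, and a log2 fold change of 0.18 ± 0.0617 at 12 days.

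Deoxynucleotide enzymes were called higher at 12 days in 4 of 5 cases (Tk1, Tyms, Rrm1 and Rrm2), with a median log2 fold change of 0.96, and in 0 of 5 at 1 day. Tk1 (chr11:117815526-117826092, minus strand), the cytosolic thymidine kinase of the salvage route, had the largest change of all 51 members. It measured 1.56, 2.86, 2.09, 1.64 and 2.07 CPM at 0 days, 3.37, 3.76, 2.75, 2.02 and 2.81 CPM at 1 day and 13.3, 12.8, 14.6, 13.3 and 15.3 CPM at 12 days. The 0-day and 1-day libraries overlapped and lay far below the 12-day libraries. The log2 fold change was 2.77 ± 0.135 at 12 days, or 6.8-fold (adjusted p = 3.15e-15, edgeR), and 0.53 ± 0.145 at 1 day (adjusted p = 0.00231, edgeR), under the 1.5-fold limit.

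Tyms, which makes thymidylate de novo, followed the same course at a smaller size, from 8.37 ± 0.868 CPM at 0 days and 8.20 ± 0.528 at 1 day to 16.9 ± 1.02 CPM at 12 days (log2 fold change 1.02 ± 0.0651). In ribonucleotide reductase, Rrm1, its large subunit, went from 34.1 ± 1.09 to 49.8 ± 1.67 and 66.2 ± 2.86 CPM. Rrm2, its S-phase small subunit, went from 15.6 ± 1.61 to 20.4 ± 0.61 and 23.5 ± 1.18 CPM. For both genes the groups did not overlap, but neither was called at 1 day (0.543 and 0.392) or between 12 and 1 days (0.413 and 0.205). Both were called at 12 days, with 0.96 ± 0.0346 and 0.60 ± 0.0558, and the call of Rrm2 was lost without 0-day replicate 4 (0.54) or 12-day replicate 3 (0.57). Dut, which removes dUTP, changed least. It measured 10.5, 11.3, 12.0, 12.6 and 10.3 CPM at 0 days, 12.5, 12.9, 11.3, 12.7 and 12.3 CPM at 1 day and 14.3, 12.9, 14.6, 15.8 and 14.7 CPM at 12 days, and its log2 fold change of 0.35 ± 0.0598 was not called although the 0-day and 12-day libraries did not overlap.

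The fork protection genes split by partner. Timeless and Tipin form a dimer that holds the helicase and polymerases together, and Clspn carries the checkpoint signal to Chk1. Clspn measured 2.71, 3.11, 2.44, 2.95 and 2.95 CPM at 0 days, 2.46, 2.19, 1.83, 1.56 and 2.27 CPM at 1 day and 6.45, 6.58, 7.09, 7.4 and 6.48 CPM at 12 days. The 12-day libraries were above all others. Its log2 fold change was -0.45 ± 0.107 at 1 day, not called, and 1.27 ± 0.0992 at 12 days (adjusted p = 2.94e-11, edgeR). Timeless had -0.49 ± 0.0909 and 0.85 ± 0.0857, the latter called. Tipin, in contrast, was highest at 1 day, with 18.5, 19.0, 17.6, 16.2 and 17.4 CPM at 0 days, 32.0, 30.1, 29.7, 29.4 and 30.7 CPM at 1 day and 25.4, 25.3, 27.5, 25.5 and 27.1 CPM at 12 days, and the groups did not overlap. Its log2 fold change was 0.78 ± 0.0426 at 1 day (adjusted p = 5.63e-14, edgeR) and 0.56 ± 0.0427 at 12 days.

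Both large subunits of CAF-1, which deposits histones on new DNA, were called higher at 1 and at 12 days. Chaf1b (chr16:93883901-93906115, plus strand) measured 2.02, 2.12, 2.56, 1.93 and 2.12 CPM at 0 days, 4.12, 4.83, 3.54, 4.34 and 4.48 CPM at 1 day and 6.81, 7.73, 7.95, 7.43 and 7.75 CPM at 12 days. Chaf1a measured 7.01, 7.02, 6.02, 5.33 and 6.17 CPM at 0 days, 10.4, 10.6, 10.3, 10.1 and 9.56 CPM at 1 day and 15.9, 14.7, 14.5, 15.8 and 15.0 CPM at 12 days. For both genes the 3 groups stood in separate steps. Chaf1b had log2 fold changes of 0.98 ± 0.0932 (adjusted p = 1.27e-09, edgeR) and 1.81 ± 0.091 (adjusted p = 5.85e-15, edgeR), and those of Chaf1a 0.69 ± 0.065 (adjusted p = 1.26e-09, edgeR) and 1.27 ± 0.064 (adjusted p = 6.36e-15, edgeR). Ubxn6 shares 52.5% of the exon bases of Chaf1a on the other strand and had log2 fold changes of 0.15 and 0.40. The count of Chaf1a is therefore uncertain, as are those of Gins2 and Fen1.

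Subunits of one complex can be compared per kilobase of exon, as CPM per kb, a level on which they started far apart and stood closer at 12 days in most complexes. In ORC, Orc1 had 0.0762 CPM per kb at 0 days and the highest subunit, Orc3, had 8.77, a ratio of 115, which was 20.7 between Orc1 and Orc2 at 12 days. In MCM2-7 the ratio of the highest to the lowest subunit was 10.5 at 0 days (Mcm4 over Mcm5) and 3.4 at 12 days (Mcm4 over Mcm2). In RFC it was 9.75 and 3.84 (Rfc1 over Rfc5 at both), in polymerase epsilon 5.28 and 1.24 (Pole2 over Pole), in GINS 21.4 and 12.5 (Gins4 over Gins1) and in CAF-1 1.55 and 1.07 (Chaf1a over Chaf1b). Library by library, the ratio in MCM2-7 ran from 9.58 to 11.3 at 0 days and from 3.0 to 3.74 at 12 days, and in polymerase epsilon from 4.6 to 6.73 and from 1.07 to 1.37, without overlap. RPA (4.53 and 4.16) moved less, and its libraries overlapped. Polymerase alpha-primase went the other way, from 1.81 at 0 days to 4.55 at 1 day and 2.49 at 12 days (Prim2 over Pola1 at each time). The values for polymerase epsilon and CAF-1 cover only the members, and those for CAF-1 rest on the uncertain count of Chaf1a. With Pole3 and Pole4, histone-fold subunits outside the 51, the ratio in polymerase epsilon was 45.3 at 0 days and 8.18 at 12 days (Pole4 over Pole), and with Rbbp4, the small subunit of CAF-1, that in CAF-1 was 31.8 and 10.2 (Rbbp4 over Chaf1b). These ratios are a description, since merged exon length only approximates the transcripts present.

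**Figure D3:**
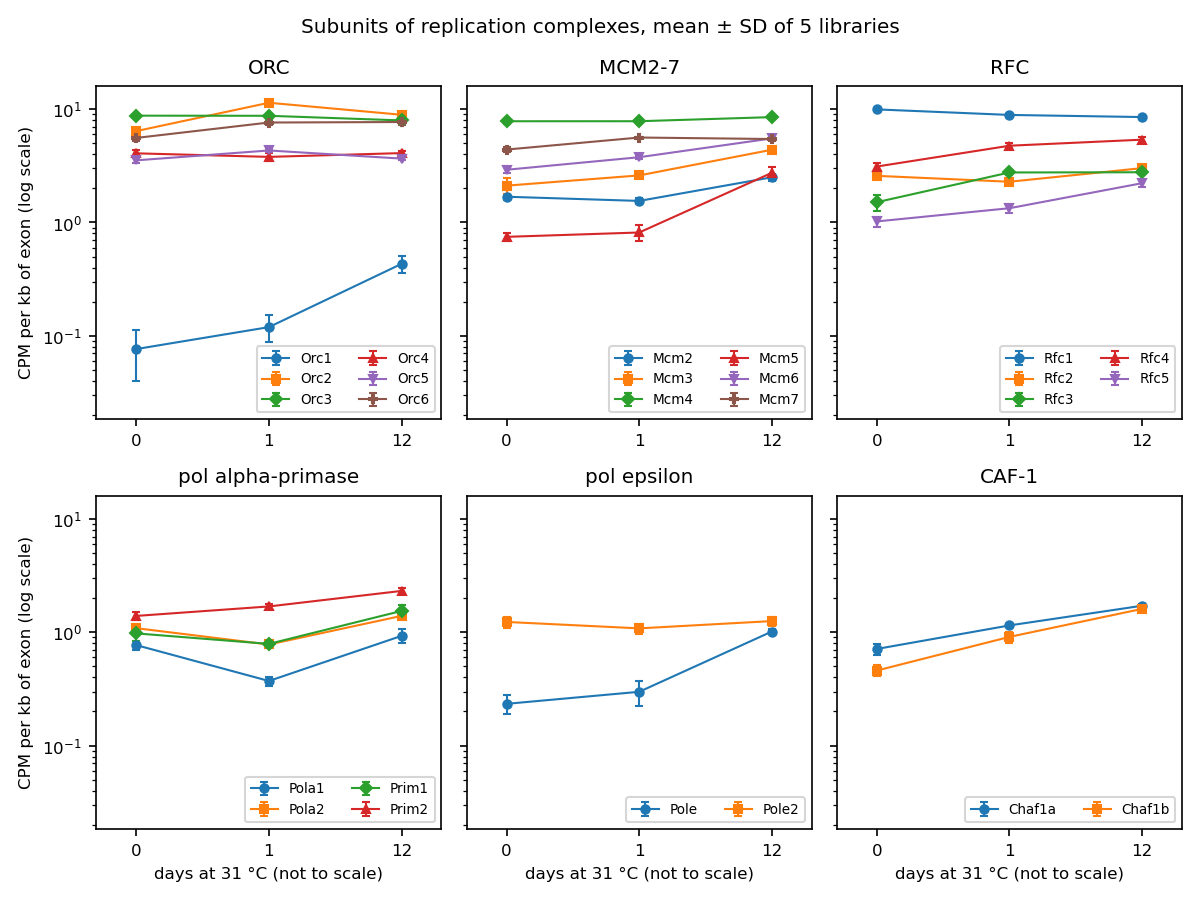
Level of the member subunits of 6 replication complexes in CPM per kb of exon (vertical axis, log scale) at 0, 1 and 12 days at 31°C; points are means and bars SDs of 5 libraries. Orc1, Mcm5 and Pole start as the lowest subunit of their complex and rise at 12 days toward the others, Pola1 dips at 1 day, and Chaf1a and Chaf1b of CAF-1 rise together.

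Members with lower levels changed more at 12 days. By their mean over 15 libraries, 11 of the lowest 17 members (0.727 to 6.28 CPM) and 11 of the middle 17 (6.77 to 13.3 CPM) were called higher at 12 days, and 3 of the highest 17 (16.6 to 67.8 CPM). Of all genes in the same ranges of level, 24.1%, 13.2% and 7.73% were called higher. Across the 51 members the Spearman correlation of level and log2 fold change was -0.411 at 12 days and 0.109 at 1 day. Genes are not independent replicates and the points share libraries, so this is a description.

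**Figure D4:**
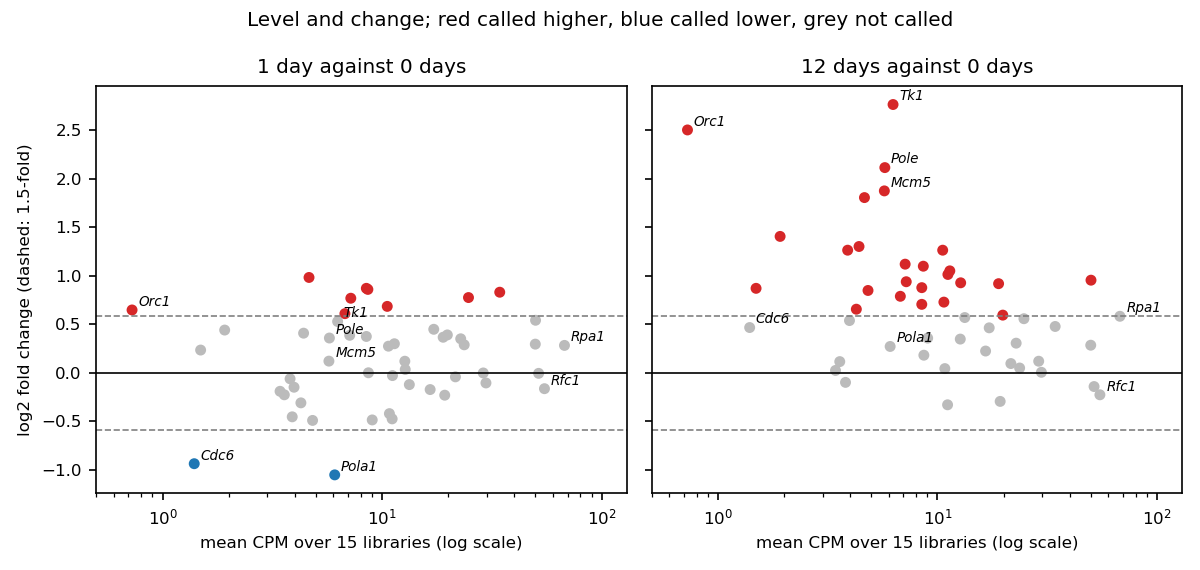
Log2 fold change against 0 days (vertical axis) by mean CPM over 15 libraries (horizontal axis, log scale) for the 51 members at 1 day (left) and 12 days (right), red called higher, blue called lower and grey not called. At 12 days the largest changes, of Tk1, Orc1, Pole and Mcm5, lie at low levels, and Rfc1 and Rpa1 at the highest levels stay within the dashed 1.5-fold lines.

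Related genes outside the 51 were examined as whole lists. Of 31 other replication factors, 15 were called higher and 1 lower at 12 days (median log2 fold change 0.59), and 6 higher and 2 lower at 1 day. The shares called higher were 48.4% and 19.4%, beside 13.0% and 7.71% of all genes. The share of all genes called lower was 16.2% at 12 days and 13.4% at 1 day. Their largest changes at 12 days were in Asf1b, a histone chaperone that feeds CAF-1 (1.23 ± 0.32 to 7.05 ± 0.347 CPM, log2 fold change 2.51 ± 0.134), and Pclaf, the PCNA-associated factor listed as 2810417H13Rik (2.75 ± 0.45 to 10.5 ± 0.842 CPM, 1.95 ± 0.115). Pold4, the smallest subunit of polymerase delta, was the one called lower, from 60.6 ± 2.6 to 37.7 ± 2.35 CPM (-0.69 ± 0.0435).

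Of 23 other deoxynucleotide and pyrimidine enzymes, 2 were called higher and 2 lower at 12 days (median 0.18), 17.4% beside 29.2% of all genes called in either direction. At 1 day 0 were called higher and 5 lower, 21.7% beside 21.1% of all genes. Nme1 and Nme2, nucleoside diphosphate kinases, had 0.94 ± 0.0383 and 0.70 ± 0.0328 at 12 days. They are similar neighbouring genes with an annotated readthrough gene, so their counts are uncertain. Rrm2b, the small reductase subunit that works outside S phase, fell from 33.4 ± 1.99 CPM at 0 days to 22.1 ± 1.23 at 1 day and 21.5 ± 1.02 at 12 days (-0.60 ± 0.0457 and -0.64 ± 0.0457), while the member Rrm2 rose. Cmpk2, a mitochondrial UMP-CMP kinase known as interferon-inducible, fell by 1.39 on the log2 scale at 12 days. Of 18 purine synthesis enzymes, 1 was called higher (Ppat, 0.71 ± 0.0619) and 3 lower at 12 days (22.2% in all, beside the 29.2%), with Prps1 (-1.14 ± 0.0372) and Adssl1 (-0.89 ± 0.101) the lowest and a median of 0.24. At 1 day, 1 purine enzyme was called higher and 1 lower, 11.1% in all beside 21.1% of all genes.

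Of 14 factors of mitochondrial DNA replication, 0 were called higher at either time and 2 lower at both, with a median log2 fold change of -0.02 at 12 days. These 14.3% lay near the shares of all genes called lower, 13.4% at 1 day and 16.2% at 12 days. The pair called lower at 12 days was the mitochondrial nuclease Mgme1, listed as 8430406I07Rik (-0.76 ± 0.0613), and the primase-polymerase Primpol, listed as Ccdc111 (-0.69 ± 0.0741). Tfam, which packages mitochondrial DNA, had 0.46 at 1 day and 0.07 at 12 days.

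Among 20 genes of the E2F, pocket protein and DREAM/MuvB families, which control transcription of replication genes, 7 were called higher and 1 lower at 12 days, and 0 higher and 4 lower at 1 day (medians 0.16 and 0.14). E2f8, an E2F of the repressor class, rose from 0.658 ± 0.168 to 3.65 ± 0.271 CPM (2.47 ± 0.145), and Foxm1, which drives G2 and M phase genes, from 3.72 ± 0.283 to 16.9 ± 1.35 CPM (2.18 ± 0.0737). E2f1, an activator of S-phase genes, was the one called lower at 12 days, from 35.8 ± 1.45 CPM at 0 days to 16.2 ± 0.997 at 1 day (-1.14 ± 0.0458) and 15.9 ± 0.872 at 12 days (-1.17 ± 0.0458). Of 15 replication checkpoint genes, 5 were called higher at 12 days, 33.3% beside 13.0% of all genes, and 0 lower, with a median of 0.15. The largest rises were in Fanci (1.75 ± 0.146) and Fancd2 (1.32 ± 0.13) of the crosslink repair pathway.

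All 20 mitotic marker genes were called higher at 12 days, with a median log2 fold change of 1.98, and 7 higher and 0 lower at 1 day, with a median of 0.36. Their summed level was 118 to 142 CPM in the 0-day, 148 to 175 in the 1-day and 413 to 481 in the 12-day libraries. Ccnb2, a mitotic cyclin, rose from 2.51 ± 0.332 to 16.0 ± 0.998 CPM (2.67 ± 0.0937) and Birc5, a subunit of the chromosomal passenger complex, from 1.86 ± 0.366 to 11.02 ± 0.843 CPM (2.57 ± 0.104). The difference between the lists was not tested, and whether the members and the mitotic markers came from the same cells was not tested either.

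**Figure D5:**
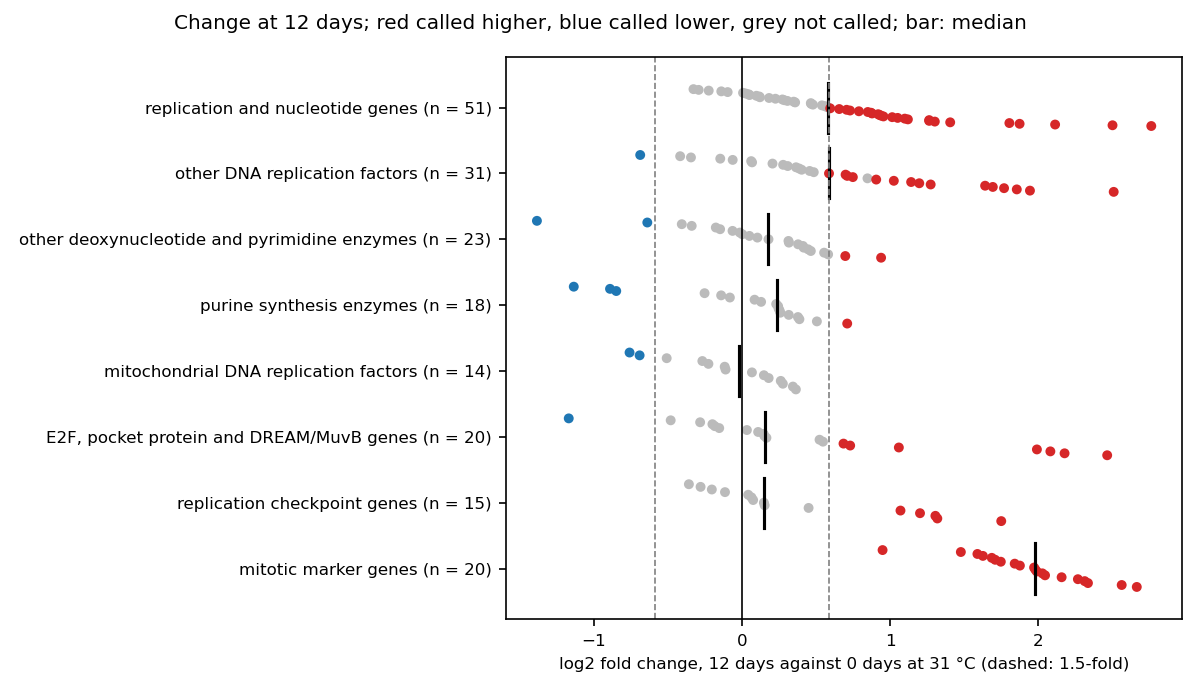
Log2 fold change at 12 days against 0 days (horizontal axis) of every gene in 8 lists (rows, with the number of genes), red called higher, blue called lower and grey not called, with the list's median as a black bar and dashed lines at 1.5-fold. The median lies at 0.58 for the 51 members, at -0.02 for mitochondrial DNA replication factors and at 1.98 for mitotic markers, all of whose points are red.

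Scaling mattered for members with small changes. With libraries scaled by total counts, the median log2 fold change of all genes at 12 days shifted from 0.01 to 0.20 and 32 members were called higher. Scaling to Hprt, Tbp and Ppia, one of several sets of reference genes in the study, shifted the median to 0.07 and 29 were called higher. The median of the members moved too, from 0.58 to 0.78 and 0.64. These scalings move all genes, so 32 and 29 cannot be set beside the 13.0% of all genes called higher with TMM scaling. With these 2 scalings 48 and 46 members were above 0 at 12 days. At 1 day the reference genes moved the median of all genes to -0.11 and left 28 members above 0, with 7 called higher and 3 lower.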

How the data were processed

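RNA-seq of 15 libraries, 5 per group, was analysed, with groups and replicates as the labels give them. The submitters' processing notes name TopHat2 2.0.13, Bowtie2 2.2.1 and build mm10. The deposited values used here are raw HTSeq counts per gene by the authors, whose strand setting is not given in the sources used here. The authors' regularized log2 values and their DESeq2 tables of fold changes and p-values were not used. The 51 members, the role groups and the related lists were chosen with earlier results of these data known.

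Counts were tested with edgeR 4.0.16 (R 4.3.3), quasi-likelihood test, TMM scaling and filterByExpr at a minimum count of 10, all 15 libraries in one fit, which left 14293 of 18804 genes. Adjusted p-values are Benjamini-Hochberg over these genes. The standard error is the log2 fold change over the square root of F. Exon length, gene positions and exon overlaps came from GENCODE (GRCm38). The fit was tested on simulated data. A counting floor of 3 counts came to 0.0225 to 0.0464 CPM per library and covers counting error only.

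The role groups set the genes described: per-library values were given for the members with the largest and smallest change at 12 days in each role, and for each member called at 1 day. Of each related list, the 2 genes with the largest rise and the 2 with the largest fall among those called were named, and Tfam as a gene the study measured. Whether replicate numbers pair libraries was not settled. Over 15 pairs of libraries with the same number, the correlation of their deviations from the group mean ran from -0.0255 to 0.0436. Pairs with other numbers ran from -0.0419 to 0.0514. Still, 10 of the 15 libraries correlated best with a library of their own number. Alternatives were DESeq2 1.42.0, other scalings, filters and thresholds, a replicate block, the library number series as a covariate, the larger series alone, 2 groups at a time and each library left out.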

Additional observations from a re-analysis of the deposited data

Results flagged for a closer look

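Within groups, 2 libraries of members stood apart from the other 4 by Dixon's test, of 153 groups of 5 examined, of which chance alone gives about 1 in 20. For Gins3, 1-day replicate 5 measured 4.19 CPM against 3.62 to 3.76 CPM in the others (gap over range 0.754). For Rrm2, 0-day replicate 4 measured 12.8 CPM against 15.6 to 16.7 CPM in the others (0.714).

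For 20 members the change after 12 days differed from that after 1 day by the test of the difference itself, called with edgeR in the same fit, and each was higher at 12 days. The log2 difference of 12 against 1 day was 2.24 for Tk1, 1.86 for Orc1, 1.76 for Pole, 1.75 for Mcm5, 1.72 for Clspn, 1.40 for Cdc6, 1.34 for Timeless and 1.32 for Pola1. It was 1.04 for Tyms, 0.97 for Mcm10 and for Prim1, 0.89 for Cdc45 and for Lig1, 0.84 for Pola2, 0.82 for Chaf1b, 0.75 for Mcm3 and 0.73 for Rfc5. It was 0.69 for Cdt1 and for Mcm2 and 0.64 for Gins1.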

How the results depend on the processing

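With DESeq2, the library series as a covariate and the replicate block, members called higher numbered 9 at 1 day, 25 at 12 days and 20 between 12 and 1 days, equal to edgeR; the replicate block changed no count of calls, and the larger series alone gave 9, 25 and 19. Without the fold limit, 25 and 11 members were higher and lower at 1 day, 41 and 4 at 12 days and 38 and 5 between them. A mean of at least 10 CPM, which tests fewer members, left 3 higher and 0 lower, 7 higher, and 5 higher. A test against a fold of 1.5 left 6 higher and 1 lower (Pola1) at 1 day, 22 higher at 12 days and 16 between them. Leaving out each library gave 7 to 10, 24 to 27 and 20 to 21 called higher. Sign changes were confined, among these alternatives, to members with small changes. At 1 day, Lig1 went to -0.035 (larger series), -0.01 (10 CPM), -0.065 (reference genes) and -0.036 to 0.089 (a library left out), and Tyms to 0.079 (larger series) and -0.068 to 0.026 (a library left out). At 12 days, Orc3 went to 0.053 and Gins3 to 0.097 (total counts), Orc4 to -0.012 (10 CPM), -0.006 (2 groups) and -0.035 to 0.035 (a library left out), and Pole2 to -0.025 to 0.07 (a library left out). Between 12 and 1 days, reference genes and total counts gave 0.018 and 0.036 for Orc3, 0.109 and 0.127 for Mcm7, 0.117 and 0.136 for Gins3, 0.09 and 0.108 for Pold2, 0.143 and 0.162 for Pcna (0.016 at 10 CPM) and 0.091 and 0.11 for Rfc1, and leaving out libraries gave -0.015 to 0.044 for Orc6 and -0.009 to 0.032 for Rfc3. With reference genes and total counts, the median of all genes between 12 and 1 days was itself 0.163 and 0.182, against 0.009 in the main fit. The cause of the sign changes was not tested. Orc1 at 1 day ran from 0.474 to 0.886 with a library left out, at 11 to 155 counts per library.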

Other observations

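Some genes related to the members had a low at 1 day, and those named here were chosen after their values were seen. In their lists, 2 of 31 other replication factors and 5 of 23 deoxynucleotide and pyrimidine enzymes were called lower at 1 day, beside 13.4% of all genes, and 6 and 0 were called higher. Cdc7, the kinase that fires origins, measured 2.39 ± 0.367, 1.28 ± 0.159 and 3.88 ± 0.659 CPM at 0, 1 and 12 days (mean ± SD, n = 5 libraries), with log2 fold changes of -0.89 ± 0.139 at 1 day and 0.70 ± 0.127 at 12 days, both called. Dbf4, its activating subunit, did not dip, with 3.75 ± 0.579, 6.48 ± 0.771 and 12.8 ± 1.68 CPM and log2 fold changes of 0.79 ± 0.105 and 1.77 ± 0.103, both called. Dck, the deoxycytidine kinase of the salvage route, measured 9.65 ± 0.453, 5.07 ± 0.479 and 9.22 ± 0.951 CPM and was called lower at 1 day (-0.93 ± 0.0747), whereas Tk1 was not. Recql4, a helicase of initiation, was called lower at 1 day (-0.80 ± 0.191) and higher at 12 days (0.71 ± 0.175).

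The E2F family moved apart by member, and the genes named here were also chosen after their values were seen. E2f2 was called lower at 1 day (-1.26 ± 0.285) and higher at 12 days (1.06 ± 0.243). E2f7 was called lower at 1 day (-0.70 ± 0.249) and higher at 12 days (1.99 ± 0.215), E2f8 was called at 12 days alone and E2f1 was called lower at both. Tfdp1, the dimer partner of E2Fs, rose from 49.2 ± 1.93 to 81.6 ± 3.52 CPM at 12 days (0.73 ± 0.0325), and Mybl2, of the MuvB complex of S and G2 phase, from 0.962 ± 0.135 to 4.11 ± 0.504 CPM (2.08 ± 0.126).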
